A study of Salmo salar with 12 samples.

Results

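Weakly methylated 100 kb windows of the Atlantic salmon genome are described here in the pituitary gland, ovary and liver of female fish. A window was 100 kb of one of the 29 chromosome sequences of the ICSASG_v2 assembly with at least 50 CpG cytosines listed in all 12 bisulfite libraries. Its level in a library was the plain mean, over those cytosines, of the percentage of its reads that were methylated. The windows whose mean over the 12 libraries lay under 72% were kept, which gave 1660 of 21411 windows (7.75%), and the rest are called the other windows. Because levels chose these windows, their low mean level is a description and not a finding, and no test is given for it.

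The libraries came from broodstock females kept as 1 group, sampled at T1, just before a long-light photoperiod that brings on maturation, and at T4, the last of 3 samplings under that light regime. There were 2 libraries for each of the 6 groups, namely pituitary T4, pituitary T1, ovary T4, ovary T1, liver T4 and liver T1. The labels give no genotype or strain, each library was made from tissue DNA, and fish codes show that some libraries of different tissues at one time point came from the same fish. No T4 fish without the light regime was analysed here, so the light regime and the passage of time cannot be told apart. In such bulk tissue, a change in the mix of cell types and a change of methylation within a cell type cannot be told apart.

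In vertebrates most CpG sites carry methyl groups, and the exceptions are mainly CpG-rich promoters and longer stretches over genes that control development. The best known of these stretches lie over the Hox clusters, neighbouring genes for homeobox transcription factors that give cells their position along the body axis and that Polycomb proteins keep silent in many adult cells. Salmonids hold many Hox clusters, because their ancestor doubled its genome after the duplication shared by teleost fishes.

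The 12 libraries listed between 9063730 and 12056957 cytosines each, with a median of 14 or 15 reads and a minimum of 10. On the chromosome sequences, 3246815 cytosines were listed in all 12 libraries, of 19302156 listed in any. One pituitary T1 library, replicate 1, listed no cytosine above 150 reads, whereas the highest values in the other libraries were between 4730 and 7395 reads, so the shared set holds no cytosine that exceeded 150 reads in that library. Median reads per cytosine differed by at most 1 read between the weakly methylated and the other windows in every library.

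The weakly methylated windows had a median level of 68.5% (quartiles 64.2% and 70.6%), against 81.2% (78.4% and 83.6%) in the other windows. Many lay close to the limit: 547 were between 70% and 72%, and 849 of the other windows were between 72% and 74%. The 3 windows just inside the limit had levels of 71.98%, 71.99% and 71.99%, and the 3 just outside lay between 72% and 72.01%, so the boundary separates neighbouring values. Only 53 windows lay under 50%, of which 8 lay under 30%. When windows were chosen on the 6 libraries numbered replicate 1 alone, 1661 were kept, and 1565 of them (94.2%) were also under 72% in the 6 libraries numbered replicate 2. Both sets of libraries held every tissue and time point, and by the fish codes a T1 fish gave libraries to both. The overlap is therefore a description and no independent support for the windows.

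**Figure D1:**
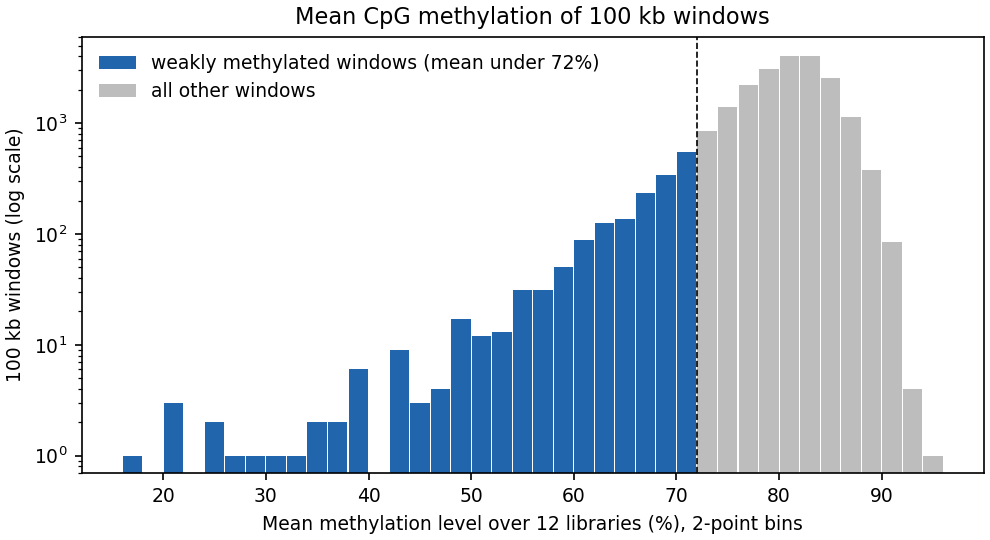
Number of 100 kb windows (vertical axis, log scale) by mean methylation level over the 12 libraries (horizontal axis, percent, bins of 2 points). Blue bars are the 1660 weakly methylated windows and grey bars the 19751 other windows; the blue bars form the left tail of the histogram, with the dashed line at 72% and 8 windows under 30%.

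Gene places in ICSASG_v2 came only from the study's list of genes nearest to regions that it chose for their methylation in these libraries. A window without a listed gene may therefore still hold genes. Of the 8 lowest windows, 4 held a listed gene, and each of those 4 held a listed Hox or even-skipped homeobox gene. The lowest of all was CM003293.1 from 88500001 to 88600000, at 16.9%, which holds hoxc12ab, a posterior Hox gene that neighbours hoxc11ab and hoxc13ab in the Ssal_v3.1 assembly. CM003281.1 from 57400001 to 57500000 (20.9%) holds LOC106600834, a Hox-B10a-like gene, and LOC106600832, an XHOX-3-like gene of the even-skipped kind. CM003303.1 from 15000001 to 15100000 (24.9%) holds evx2a, an even-skipped homeobox gene that stands next to hoxd13a in Ssal_v3.1. CM003305.1 from 27800001 to 27900000 (28.8%) holds hoxa2ab, whose relatives in other vertebrates pattern the hindbrain and the second pharyngeal arch.

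The other 4 of these windows held no listed gene, which does not show that they hold no gene. CM003290.1 from 54200001 to 54300000 (21.2%) lies 1 window before LOC106565462, a retinoic acid receptor gamma-A-like gene that stands next to hoxc13ba in Ssal_v3.1. CM003291.1 from 35600001 to 35700000 (26.4%) lies 200 kb before LOC106567074, a LIM domain and actin-binding protein 1-like gene, which in Ssal_v3.1 lies a few genes from hoxc10aa. CM003300.1 from 32600001 to 32700000 (20.3%) lies 400 kb before LOC106583287, which in Ssal_v3.1 lies a few genes from hoxc4bb. CM003284.1 from 40600001 to 40700000 (24.5%) had no listed gene within 500 kb.

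In these 8 windows the pituitary was lowest and the ovary highest, whereas over all windows the liver was highest. Their mean level was 14.8% ± 0.881 in pituitary, 33.9% ± 3.46 in ovary and 20.2% ± 0.604 in liver (SD, n = 4 libraries each). These SDs pool T4 and T1. Within a time point the ovary SD was 0.302 at T4 and 0.472 at T1 (n = 2 libraries each). All 8 were called lower in the pituitary than in the ovary, and all 8 higher in the ovary than in the liver, by edgeR's quasi-likelihood test with Benjamini-Hochberg adjustment over 21411 windows. In all windows, 9.11% were called lower in the pituitary than in the ovary, and 1.08% higher in the ovary than in the liver. The mean over these same libraries chose the 8 windows. Part of their differences from all windows, here and against the liver, may therefore follow from the choice. The next window by level, described further below, was highest in the pituitary, so the shared order depends on where the class ends. In the pituitary against the liver, 6 of the 8 were called lower, against 49.7% of all windows; the exceptions were CM003290.1 from 54200001 (19.2% in the pituitary and 21.4% in the liver, adjusted p = 0.14) and CM003291.1 from 35600001 (16.5% and 18.9%, adjusted p = 0.053).

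The widest difference between tissue means among the 1660 windows was that of the hoxa2ab window. Its level was 14.5% and 10.3% in pituitary T4, 12.0% and 10.1% in pituitary T1, 46.5% and 46.1% in ovary T4, 50.5% and 49.2% in ovary T1, 24.7% and 27.4% in liver T4, and 27.2% and 27.0% in liver T1. The 3 tissues did not overlap. The log2 odds ratio of methylation was -2.84 for the pituitary against the ovary (adjusted p = 2.57e-16) and 1.36 for the ovary against the liver (adjusted p = 1.16e-11), both from edgeR. Of its 170 shared cytosines, 145 were under 20% methylated in pituitary T4, 42 in ovary T4 and 66 in liver T4.

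The next widest tissue differences lay at CM003292.1 from 79800001 to 79900000, which holds hoxa5ab, and at CM003284.1 from 40700001 to 40800000, next to one of the 8 lowest windows. The hoxa5ab window stood at 23.9% in pituitary, 56.1% in ovary and 34.5% in liver, and the other at 24.5%, 55.5% and 36.1%. Both have the same order of tissues as the 8 lowest windows. The next window after hoxa5ab, with the XHOX-3-like gene LOC106570521, was at 69.5%, 68.3% and 72.5%.

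**Figure D2:**
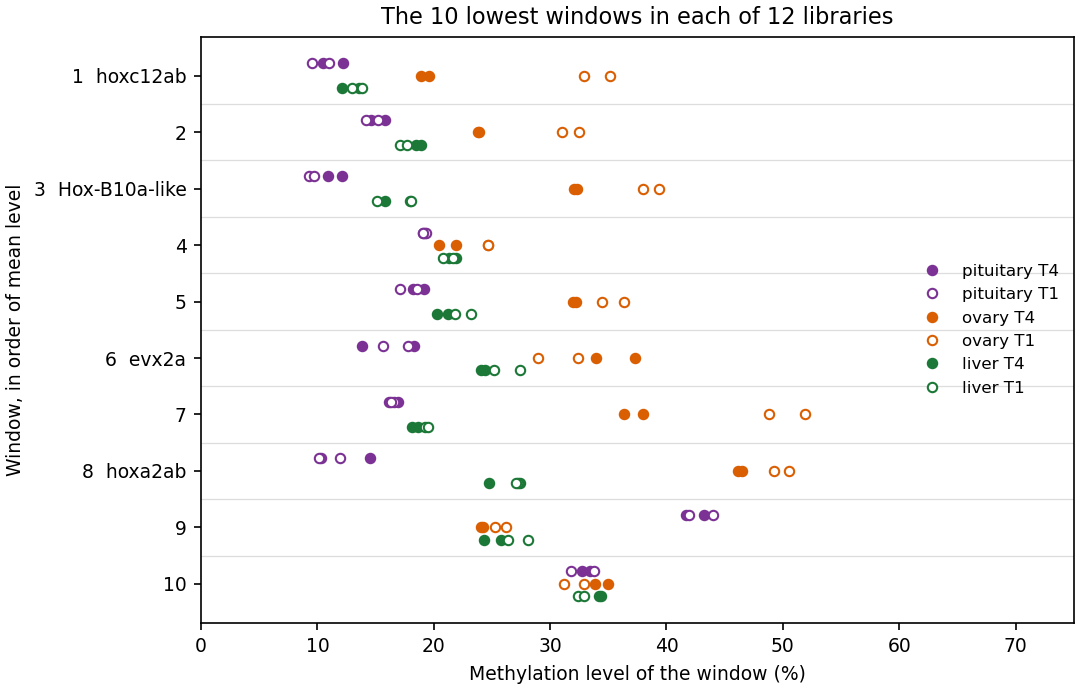
Methylation level (horizontal axis, percent) of the 10 lowest windows in each library, ordered from the lowest at the top, with filled circles for T4 and open circles for T1. In windows 1 to 8 the ovary lies to the right of the pituitary in every library, and in windows 1, 2 and 7 the ovary T4 circles lie clearly to the left of the ovary T1 circles; gene names are given where a Hox or evx gene is placed in the window.

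The share of low cytosines in these loci differed between tissues. Over the 8 windows, 1524 cytosines were shared by all libraries. In the pituitary, 81.8% of them were under 20% methylated at T4 and 83.2% at T1. In the ovary the shares were 52.0% at T4 and 43.0% at T1, and in the liver 68.7% at T4 and 68.2% at T1. In 10 kb bins around the window centres, the median level over the windows at 15 kb before the centre was 2.69% in pituitary, 12.5% in ovary and 5.80% in liver. At 55 kb after the centre it was 67.7%, 69.8% and 81.6% (7 windows with enough cytosines). Levels did not stay high beyond that: at 75 kb after the centre the medians were 36.8%, 40.4% and 34.8% (5 windows).

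**Figure D3:**
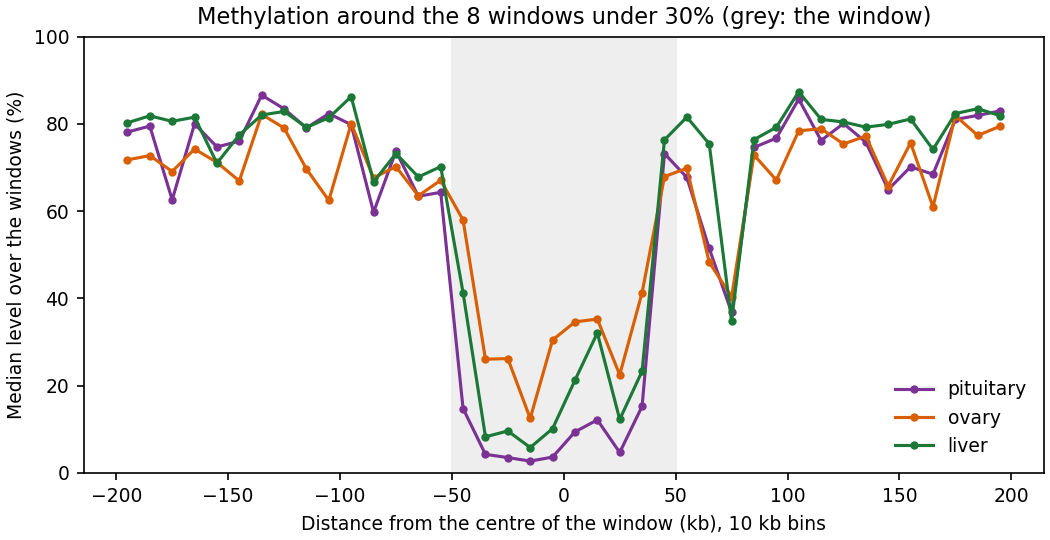
Median methylation level over the 8 windows under 30% (vertical axis, percent) by distance from the window centre (horizontal axis, kb, 10 kb bins with at least 5 shared cytosines), one line per tissue, with the window itself in grey. From 25 kb before to 5 kb after the centre the ovary line runs above the liver line and the pituitary line is lowest. At 55 kb after the centre the medians are 67.7% in pituitary, 69.8% in ovary and 81.6% in liver. At 75 kb after it they are 36.8%, 40.4% and 34.8% (5 windows).

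In the ovary these windows were lower at T4 than at T1. The mean level of the 8 windows was 30.7% and 31.2% in ovary T4, against 36.6% and 37.3% in ovary T1, a difference of -5.97 points. In 7 of the 8, both ovary T4 libraries lay below both ovary T1 libraries, against 11.1% of all windows; the exception was the evx2a window, with 34.0% and 37.3% in ovary T4, against 32.4% and 29.0% in ovary T1. The corresponding differences in T4 against T1 were 0.637 points in the pituitary and -0.553 points in the liver. All 8 windows were read in the same ovary libraries, so the count of windows is no independent support. In the 45 windows from 30% to 50%, the ovary difference was 0.604 points. There, both ovary T4 libraries lay above both ovary T1 libraries in 18 windows and below them in 9. The lower ovary level at T4 therefore did not extend to that class as a whole.

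Across all 1660 windows, 6 were called between T4 and T1 in the ovary (0.361%, against 0.0887% of all windows), 4 lower at T4 (0.241%, against 0.028%) and 2 higher (0.12%, against 0.0607%). The balance of directions depended on the test. Limma on mean levels called 7 lower and 27 higher, and the ovary libraries alone gave 8 lower and 13 higher. Cytosines with at least 15 reads gave 1 lower and 4 higher. The shares of all windows called in these alternatives are not given here, so their counts carry no comparison with all windows. The 4 windows called lower in the main test were 3 of the 8 lowest windows and the hoxa5ab window. The strongest was CM003291.1 from 35600001, with 38.0% and 36.3% in ovary T4, against 48.8% and 51.9% in ovary T1 (log2 odds ratio -0.84, adjusted p = 2.29e-05). In the same window the pituitary had 16.9% and 16.2% at T4, against 16.6% and 16.4% at T1, and the liver had 18.1% and 18.6% at T4, against 19.3% and 19.5% at T1. It was the only window of 21411 (0.00467%) called for a difference in the T4 against T1 change between tissues, with an adjusted p of 0.00293 from edgeR's interaction test. That call was lost without ovary T1 replicate 2, without ovary T4 replicate 2 and with at least 15 reads.

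The hoxc12ab window had 18.9% and 19.6% in ovary T4, against 32.9% and 35.2% in ovary T1 (log2 odds ratio -0.99, adjusted p = 0.000328). Its low cytosines numbered 123 of 173 in ovary T4 and 84 of 173 in ovary T1. The window CM003300.1 from 32600001 had 23.9% and 23.8% in ovary T4, against 31.1% and 32.5% in ovary T1 (log2 odds ratio -0.58, adjusted p = 0.00766). The hoxa5ab window had 50.3% and 52.0% in ovary T4, against 60.9% and 61.3% in ovary T1 (log2 odds ratio -0.50, adjusted p = 0.0377). In each of these windows the T4 and T1 libraries of the ovary did not overlap. With cytosines of at least 15 reads only, the hoxc12ab, hoxa5ab and CM003300.1 windows were no longer called, and without 1 ovary library the hoxa5ab window was not called for any of the 4, nor the CM003300.1 window for 3 of the 4, ovary T4 replicate 1 being the exception. In the 19 alternatives run on each of these 4 windows, the ovary difference stayed negative. Those that left out a liver or pituitary library could hardly change it, and the windows were taken up because they were called lower. The count of alternatives is therefore no independent support.

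In the 45 windows from 30% to 50%, calls between tissues went both ways. There, 13 were called higher in the ovary than in the liver (28.9%, against 1.08% of all windows) and 12 lower (26.7%, against 76.6%). Between the pituitary and the ovary, 16 were called lower in the pituitary (35.6%, against 9.11%) and 6 higher (13.3%, against 46.1%). The mean over these same libraries chose this class as well, so part of these differences from all windows may follow from the choice. The class means were 42.3% in pituitary, 45.0% in ovary and 45.0% in liver. The next 2 windows by level, the lowest of this class, did not follow the tissue order of the windows under 30%. CM003304.1 from 38200001 to 38300000 (31.3%) was highest in the pituitary, with 43.2% and 41.6% at T4 and 41.9% and 44.0% at T1. The ovary had 24.1% and 24.2% at T4 and 26.2% and 25.3% at T1, and the liver 24.3% and 25.7% at T4 and 28.1% and 26.4% at T1. The log2 odds ratio of the pituitary against the liver was 1.22 (adjusted p = 2.56e-12, edgeR), and no gene with a place in the assembly was at hand within 500 kb. CM003281.1 from 55800001 to 55900000 (33.2%) had tissue means of 33.0% in pituitary, 33.2% in ovary and 33.5% in liver, and it was called in none of the comparisons.

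That window lies next to CM003281.1 from 55700001 to 55800000, which holds LOC101448042, annotated as the type I interferon IFNb, an antiviral cytokine. This neighbour stood at 43.9% in pituitary, 43.4% in ovary and 44.0% in liver and held the longest run of low cytosines, 94 in a row over 10996 bp. The next longest runs were 91 cytosines over 4303 bp at CM003279.1 from 108200001, with an uncharacterised gene, and 77 over 16792 bp at CM003290.1 from 54200001, beside the retinoic acid receptor gene. The tissue means of these 3 windows lay within 3.74 points of each other.

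Homeobox genes outside the Hox clusters were also placed in weakly methylated windows. Of 40 genes described as homeobox or Iroquois genes, the Hox genes above included, and given a place by the study's own annotation of ICSASG_v2, 29 (72.5%) touched such a window, against 322 of 1984 other genes (16.2%). That annotation lists genes nearest to regions that the study chose for their methylation in these libraries, and the class of gene was looked at after the lowest windows had been seen, so the shares are a description. The 40 genes touched 48 windows, of which 30 were weakly methylated, 23 of them at 50% or more.

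The following examples were chosen from this list after their values were seen. They lie at its low end and are not typical, as the 23 windows at 50% or more had a median level of 67.8%. The window of irx2, an Iroquois gene of neural patterning, was at 39.1% in pituitary, 32.4% in ovary and 32.0% in liver. That of LOC106563039, an orthopedia B-like gene whose relatives specify hypothalamic neurons, was at 38.6%, 35.5% and 37.5%. The 2 windows touched by nkx2-2, a gene of ventral neural tube identity, had mean levels of 56.4% and 59.0%. The window of dlx2, a forebrain and branchial arch gene, was at 57.6%, and that of hmx3, an inner ear gene, at 55.7%. In the 23 windows at 50% or more, the difference between the highest and lowest tissue was between 2.97 and 9.05 points. The hoxa2ab window, at 36.4 points, was named above for having the widest difference, so every other window had to be smaller. The 23 windows also include CM003292.1 from 79900001 and CM003281.1 from 57500001, each touched by an XHOX-3-like gene. The range over the 23 windows therefore shows no contrast between Hox loci and other homeobox genes.

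Over all 1660 windows the liver had the highest level. The mean was 65.1% ± 0.429 in pituitary, 64.5% ± 0.679 in ovary and 69.3% ± 0.121 in liver (SD over T4 and T1 together, n = 4 libraries each). The ovary was the lowest tissue in 992 windows, the pituitary in 613 and the liver in 55. Of the 1660, 767 were under 72% in all 12 libraries and 992 were under 72% in the liver, so the liver mean was at or above 72% in the rest.

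The tissue order was that of the genome as a whole. The ovary differed from the liver by -4.71 points in the weakly methylated windows, -5.38 in the 849 windows at 72% to 74% and -3.70 in all other windows. The pituitary differed from the liver by -4.17, -4.45 and -2.31 points in the same order, and from the ovary by 0.543, 0.935 and 1.39 points. In the weakly methylated windows the gap between pituitary and ovary was smaller than the SD of the 4 ovary libraries, 0.679 points. That SD pools T4 and T1 and so includes their difference. Within a time point it was 0.620 points at T4 and 0.331 points at T1 (n = 2 libraries each). In all other windows the libraries of both tissues did not overlap.

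In edgeR's test, 1154 of the 1660 windows were called between the ovary and the liver (69.5%), against 77.6% of all windows, with 1098 lower and 56 higher in the ovary. Those 1098 are 66.1% of the windows, against 76.6% of all, and the 56 are 3.37%, against 1.08%. Between the pituitary and the liver, 1014 (61.1%) were called, against 56.5% of all, with 940 lower in the pituitary (56.6%, against 49.7%) and 74 higher (4.46%, against 6.85%). Between the pituitary and the ovary, 753 (45.4%) were called, against 55.2% of all. Of these, 477 were higher in the pituitary, against a background of 46.1%, and 276 lower, against 9.11%. The 4 libraries of the ovary all lay below the 4 of the liver in 1180 windows (71.1%, against 72.5% of all windows) and all above them in 42 (2.53%, against 0.892%). The pituitary libraries all lay below the liver ones in 1001 windows (60.3%, against 50.1%) and above in 61 (3.67%, against 5.39%). They all lay below the ovary ones in 258 windows (15.5%, against 9.18%) and above in 445 (26.8%, against 37.1%). Because the mean over these same libraries chose the windows, a window could pass the limit through a tissue that was low. Part of these differences from all windows, and of the wider gaps to the liver given above, therefore follows from the choice.

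The 3 windows called with the smallest p between the pituitary and the liver, and 1 of the 3 between the ovary and the liver, had under 5% low cytosines. Such windows passed the limit of 72% through the tissue that was low, so their tissue differences are a description. CM003298.1 from 51900001 to 52000000 had 52.1% in pituitary, 62.1% in ovary and 79.6% in liver, with 1.77% of its cytosines low. CM003279.1 from 56600001 to 56700000 had 55.5%, 75.3% and 80.4%, and CM003292.1 from 57300001 to 57400000 had 61.2%, 71.5% and 82.9%. CM003286.1 from 3500001 to 3600000, with LOC106609963, a double C2-like domain-containing protein beta gene of vesicle release, had 71.99%, 62.4% and 79.6%, with 2.48% low cytosines.

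Low cytosines, meaning those under 20% methylated on average over the 12 libraries, made up 15.7% of the shared cytosines in the weakly methylated windows, against 2.55% in the other windows. The 1660 windows held 32.9% of all low cytosines. Since the level is a mean over the cytosines, some such excess follows from the choice of windows. The shortfall of a window from the median of the other windows had a median of 12.7 points. Low cytosines carried a median of 80.3% of it, and more than 50% in 1295 windows. This split counts every low cytosine of a window, with nothing subtracted for the 2.55% that the other windows also hold. These values therefore overstate the part carried by the excess of low cytosines. The level of the remaining cytosines had a median of 78.3%, against 83.1% in the other windows, and was itself under 72% in 170 windows. A run of at least 10 consecutive low cytosines was present in 967 windows, and 10 windows held no low cytosine. The same counts in the other windows are not given here, so these carry no comparison.

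The difference between the highest and lowest tissue mean had a median of 12.3 points in windows with under 5% low cytosines and 3.74 points in windows with over 30%, although the widest difference of all, that of the hoxa2ab window, was among the windows with over 30%. In the 99 windows with more than 30% low cytosines, the mean level was 46.9% in pituitary, 48.5% in ovary and 48.9% in liver. In the 157 windows with under 5% low cytosines it was 66.8%, 66.7% and 76.5%. In the windows with under 5% low cytosines, 145 were called lower in the ovary than in the liver (92.4%, against 76.6% of all windows), and 135 lower in the pituitary than in the liver (85.99%, against 49.7%). In those with over 30%, 21 were called lower in the ovary than in the liver (21.2%, against 76.6%) and 20 higher (20.2%, against 1.08%), so their class means average over both directions. A window with few low cytosines could pass the limit mainly through lower levels in some tissues, so part of this contrast follows from the choice of windows.

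**Figure D4:**
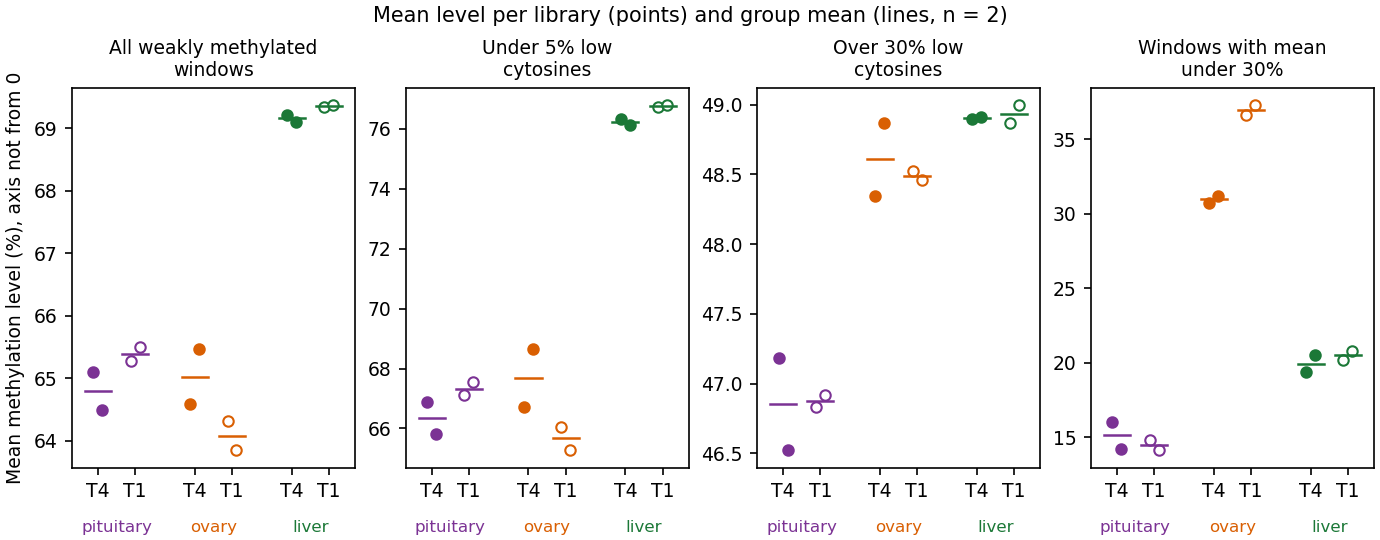
Mean methylation level per library (vertical axes, percent, each on its own range and not from 0) for 4 sets of windows, with filled circles for T4, open circles for T1 and lines for group means of 2 libraries. The liver is highest in the first 3 sets, with ovary minus liver at -9.81 points where low cytosines are few, and the ovary is highest in the 8 windows under 30%, where ovary T4 lies at 30.7% and 31.2% and ovary T1 at 36.6% and 37.3%.

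Between T4 and T1, the mean over all 1660 windows moved by less than 1 point in each tissue. It was 65.1% and 64.5% in pituitary T4, against 65.3% and 65.5% in pituitary T1, a difference of -0.585 points. It was 64.6% and 65.5% in ovary T4, against 64.3% and 63.8% in ovary T1, a difference of 0.943 points. Liver values were 69.2% and 69.1% at T4, against 69.4% and 69.4% at T1, a difference of -0.195 points. In each tissue the T4 and T1 libraries did not overlap, and the other windows moved the same way, by -0.539, 0.607 and -0.102 points. When every listed cytosine of each library was used, T4 minus T1 turned to 0.110 points in the pituitary and 0.210 points in the liver. No test was run on these means.

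Few single windows were called between the time points. There were 5 in the pituitary (0.301%, against 0.112% of all windows), with 2 higher at T4 (background 0.0374%) and 3 lower (background 0.0747%). There were 3 in the liver (0.181%, against 0.0981%), 3 of them higher (background 0.056%) and 0 lower (background 0.042%). Among these 3, the window CM003298.1 from 51200001 was not called with limma on mean levels, with limma on log2 ratios or with the liver libraries alone. Leaving out 1 library moved its log2 odds ratio between 0.469 and 0.712. Averaged over the tissues, 24 were called (1.45%, against 0.799%), 11 higher (background 0.36%) and 13 lower (background 0.439%). This average counted the 12 libraries as independent, although by the fish codes the tissues of a time point share fish. There were fewer fish than libraries, so these p-values do not measure the spread between fish. No fit with the fish code as a block was run for T4 against T1. Both T4 libraries lay above both T1 libraries in 143 windows in the pituitary (8.61%, against 7.64%), 648 in the ovary (39.0%, against 32.5%) and 234 in the liver (14.1%, against 15.4%). They lay below in 531 (32.0%, against 33%), 159 (9.58%, against 11.1%) and 368 (22.2%, against 19.9%) windows. At an unadjusted p under 0.05, the counts were 163 for pituitary (9.82%, against 8.18% of all windows), 289 for ovary (17.4%, against 11.4%) and 147 for liver (8.86%, against 6.11%).

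The window with the smallest p averaged over the tissues, CM003284.1 from 19700001 to 19800000, had higher levels at T4 in pituitary, ovary and liver libraries (averaged log2 odds ratio 0.79, adjusted p = 8.67e-07, edgeR). It had 52.9% and 53.1% in pituitary T4, against 34.8% and 37.4% in pituitary T1 (log2 odds ratio 0.94, adjusted p = 0.00162). In the ovary it had 51.1% and 53.4% at T4, against 35.4% and 47.8% at T1 (adjusted p = 0.108). In the liver it had 55.0% and 54.8% at T4, against 35.8% and 36.0% at T1 (log2 odds ratio 0.93, adjusted p = 0.000968). Its read depth moved with the level: each shared cytosine had 78.3 to 169 reads on average in the T4 libraries, against 27.8 to 75.8 reads in the T1 libraries, and the T1 library with 75.8 reads, ovary replicate 2, was the one at 47.8%. The part of this depth in the result was not tested. The averaged test also counted libraries of the same fish as independent. Without liver T4 replicate 1 the liver call was lost.

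The mean levels and the test differed for some other called windows. CM003288.1 from 110800001 to 110900000, with a reelin-like gene, LOC106561737, had 69.1% and 69.7% in pituitary T4, against 75.3% and 69.7% in pituitary T1 (log2 odds ratio -1.07, adjusted p = 0.0124). Leaving out 1 library moved the log2 odds ratio between -1.57 and -0.61, and the call was lost without pituitary T1 replicate 1, without pituitary T4 replicate 1 and with limma. The log2 odds ratio became -0.10 when cytosines above 3 times the median reads of a library were left out. CM003304.1 from 42900001 to 43000000, with a forkhead box B1-like gene, LOC106588000, was called higher at T4 in the liver (adjusted p = 0.0391), although its plain mean levels overlapped, at 73.0% and 74.4% in liver T4 and 73.8% and 73.0% in liver T1. This call was lost in 11 of 18 alternatives, among them each of the 4 that left out a liver library. The test weighs each cytosine by its reads and the mean level does not.

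CpG density was lower in the weakly methylated windows as a group and highest in the lowest of them. Counting cytosines listed in at least 1 library, which depends on read depth as well as on sequence, the median was 844 per 100 kb, against 916 in the other windows. The 8 windows under 30% had a median of 1323, between 1174 and 1466. The 12 windows from 30% to 40% had a median of only 495, and the median was between 823 and 863 in classes from 50% to 76%, and rose from class to class above that, to 982 in windows at 88% or more. The extremes were CM003294.1 from 9400001 to 9500000 with 1748 listed cytosines, at 69.9%, and CM003304.1 from 30800001 to 30900000 with 174, at 62.7%. The window on CM003304.1 holds LOC106587587, a sal-like protein 1 gene for a zinc finger factor of organ development, and stood at 47.5% in pituitary, 70.4% in ovary and 70.4% in liver.

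In the weakly methylated windows, but not in the other windows, low cytosines lay in denser stretches than high ones. Within 100 bp of a low cytosine of the weakly methylated windows there were 5 listed cytosines (median, mean 5.29), against 4 (mean 4.57) around high cytosines, those above 80%, and 3 (mean 3.74) around intermediate ones. In the other windows the medians were 4, 4 and 3, and the means 4.30, 5.10 and 3.59.

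**Figure D5:**
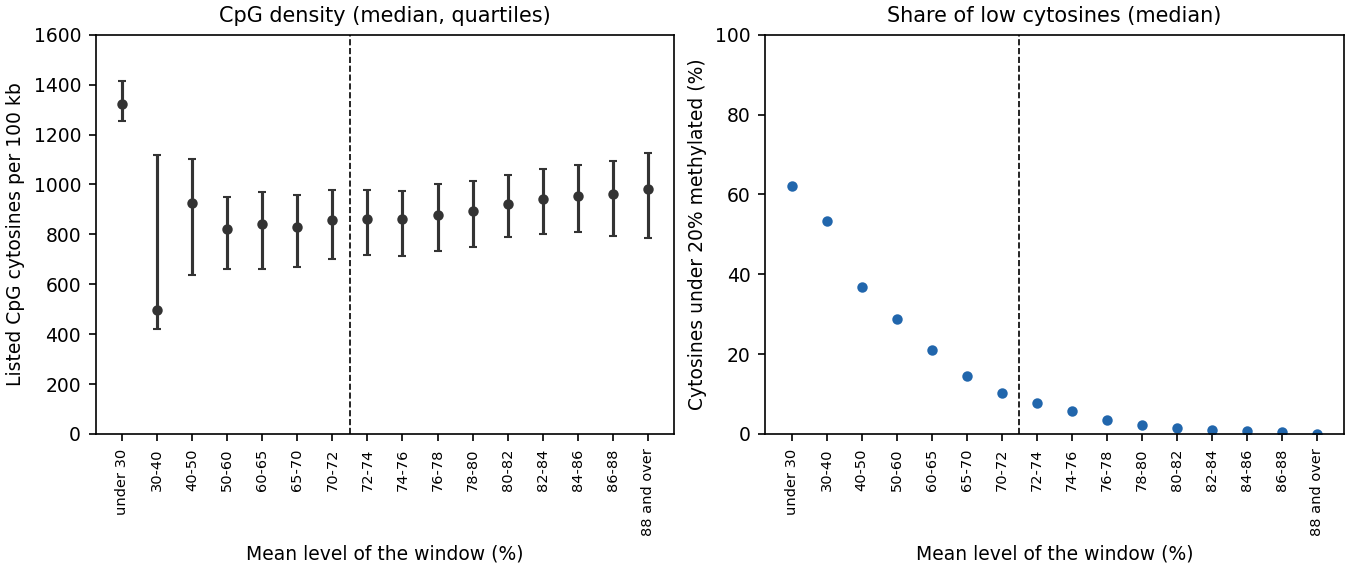
Listed CpG cytosines per 100 kb (left, median with quartiles) and share of cytosines under 20% methylated (right, median, percent) by mean level of the window in classes from under 30% to 88% and over, with the dashed line at 72%. Density is highest under 30%, at a median of 1323, and lowest from 30% to 40%, at 495, whereas the share of low cytosines falls steadily as the level rises.

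The windows lay closer together than windows in general. Of the 1660, 407 (24.5%) were next to another one, against 13.8% of all windows. At a distance of 100 kb, 14.7% of the windows were weakly methylated, against 7.67% around all windows, and the share was 12.7% at 500 kb, 9.57% at 1000 kb and 8.70% at 5000 kb. Around the 8 lowest windows, 9 of 16 direct neighbours were weakly methylated, and the flanking level had a median of 70.6% at 100 kb and 80.3% at 500 kb. For hoxc12ab, the neighbours stood at 53.6% before and 83.9% after.

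Most were single nevertheless. There were 1253 single windows, 136 pairs, 25 runs of 3, 6 runs of 4, 6 runs of 5 and 1 run of 6. The run of 6 covered CM003290.1 from 9900001 to 10500000, at levels between 61.5% and 68.5%, and held no gene of the study's list. A run of 5 at CM003283.1 from 35400001 to 35900000 covered protocadherin genes, clustered genes for adhesion proteins of neurons, including LOC106604830 (alpha-3-like), LOC106604881 (alpha-C2-like) and LOC106604827 (gamma-A12-like). Its lowest windows were at 39.6% and 43.0%, and over the run the mean was 53.5% in pituitary, 59.9% in ovary and 56.8% in liver. Another run of 5, at CM003287.1 from 17400001 to 17900000, covered zinc finger protein genes such as LOC106610830 and LOC106610832 and had tissue means of 61.3%, 58.6% and 59.97%.

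The share of weakly methylated windows differed between chromosome sequences. It was highest on CM003280.1, at 115 of 684 windows (16.8%), and lowest on CM003306.1, at 15 of 380 (3.95%). Within 2 Mb of the end of a sequence there were 71 of the 1660 (4.28%). The share over all windows is not given here, so this count does not show whether sequence ends held more or fewer of them. The 2 highest shares, on CM003280.1 and on CM003281.1 (11.8%), went with median levels over all windows of 79.4% and 79.7%, against 80.7% on CM003306.1.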

How the data were processed

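Per the labels and the study's methods, the authors trimmed paired-end bisulfite reads with Trim Galore 0.5, aligned them to the converted ICSASG_v2 assembly with BS-Seeker2 2.1.8 and Bowtie2, removed duplicates with Picard, and deposited read counts and methylated read counts per CpG cytosine, listing those with at least 10 reads. Strands were kept apart. Windows, levels and run lengths were computed with Python 3.11.15.

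Windows were tested with edgeR 4.0.16 (R 4.3.3) on summed methylated and unmethylated counts of all 12 libraries, with a library effect, a mean for each of the 6 groups and Benjamini-Hochberg adjustment over 21411 windows (threshold 0.05). Tests treated libraries as independent although some tissues came from the same fish, so p-values measure only the spread between these samples; limma 3.58.1 was an alternative. The test was also run on simulated data, in which libraries were drawn independently with a single common spread. The simulation held no shared fish and its outcome is not given here, so it is no support for the calls.

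The windows, the gene classes and the comparisons were chosen with earlier results of these data known. Windows named in the text were the 10 lowest, those at the limit, the longest runs, the extremes of density and tissue difference and, for each comparison, up to 3 called windows with the smallest p; windows holding a homeobox gene outside the Hox clusters were added after their values were seen. Gene places came from the study's annotation of ICSASG_v2, and gene neighbours from RefSeq's Ssal_v3.1. No genome of the files' build was used here, so no sequence is shown. The alternatives are given in the closing section.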

Additional observations from a re-analysis of the deposited data

Results flagged for a closer look

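In the window CM003291.1 from 35600001, the T4 against T1 difference varied between tissues, with an adjusted p of 0.00293 in edgeR's interaction test; the call was lost without ovary T1 replicate 2, without ovary T4 replicate 2 and with at least 15 reads. In 5 other cases every T4 library moved one way in one tissue and the opposite way in another. The number of cases examined is not given here, so these 5 are a description and are not shown to be unusual. Among all windows, both T4 libraries lay above both T1 libraries in the ovary in 32.5%. They lay below them in the pituitary in 33%. Over the mean of the 1660 windows, T4 minus T1 in the ovary exceeded that in the liver by 1.14 points, and T4 minus T1 in the pituitary less that in the ovary was -1.53 points; these 2 differences were not tested. In CM003300.1 from 32600001, T4 minus T1 in the ovary less that in the liver was -9.15 points. In CM003281.1 from 57400001, the Hox-B10a-like window, T4 minus T1 in the pituitary less that in the ovary was 8.52 points. In CM003303.1 from 15000001, the evx2a window, T4 minus T1 in the ovary less that in the liver was 6.93 points. In the interaction test over the 3 tissues none of these 3 windows was called, with adjusted p of 0.145, 0.362 and 0.704, and the single pairs of tissues were not tested.

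In the hoxa2ab window, liver T4 replicate 1 stood at 24.7%, apart from the other 3 liver libraries, which were between 27.0% and 27.4%. Chance sets a library apart in about 1 in 20 groups of this size, and 33 groups of 4 were examined.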

How the results depend on the processing

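Limits come first. The shared set holds only cytosines with at least 10 reads in all 12 libraries, and each group had 2 libraries, so small differences were not detectable. Membership near 72% depended on the settings. With every listed cytosine of each library, 1093 windows were chosen, of which 894 were among the 1660, and all 8 windows under 30% stayed. With at least 15 reads, 1627 were chosen and 927 were shared; 1111 of the 1660 had enough cytosines, and the 7 testable windows under 30% stayed. These overlaps and the split by replicate number were chosen after seeing the data.

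With every listed cytosine, ovary minus liver was -2.48 points, pituitary minus liver -2.68, and pituitary minus ovary turned to -0.201. T4 minus T1 turned to 0.110 in the pituitary and 0.210 in the liver, density was 0.907 of the other windows, the low share 17.5% and the share next to another such window 20.6%; the cause was not tested. At a limit of 70% the values were -4.34 and -3.86 points for ovary and pituitary minus liver, 18.5% low cytosines and 21.1% adjacent. At 75% there were 3159 windows, 11.7% low cytosines and 37.8% adjacent. Windows of 50 kb numbered 3484, with -5.18 and -4.67 points and a density ratio of 0.950; windows shifted by 50 kb gave 27.7% adjacent. A minimum of 100 cytosines gave a ratio of 0.939 and 21.2% adjacent, and a minimum of 20 a ratio of 0.911. Weighting by reads gave -5.12 points for ovary minus liver and -0.00154 for T4 minus T1 in the liver. With at least 15 reads, the values were -6.72 and -5.87 points, -0.268 for T4 minus T1 in the liver, a ratio of 0.957 and 13.6% low cytosines. Leaving out cytosines over 3 times the median reads gave -4.14 and -3.66 points. Counting a cytosine as low under 10% or under 30% gave 12.6% and 18.3%.

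Counts of weakly methylated windows called between T4 and T1 moved most. The shares of all windows called under the same settings are not given here, so these counts carry no comparison with all windows. With limma on mean levels they were 1 in the pituitary, 34 in the ovary, 1 in the liver and 3 for the interaction. With limma on log2 ratios they were 2, 3 and 1, and 14 averaged over the tissues. Without the deepest cytosines they were 0 in the pituitary, 1 in the liver, 12 averaged and 3 for the interaction, and the averaged log2 odds ratio of the reelin-like window CM003288.1 from 110800001 turned to 0.0049. With at least 15 reads the interaction gave 0. In shifted windows they were 8 in the pituitary, 12 in the ovary and 0 for the interaction. Fits on one tissue gave 21 in the ovary and 1 in the liver.

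Replicate numbers did not pair T4 with T1: the correlations of replicate differences were -0.0168 in the liver, -0.0724 in the ovary and 0.00281 in the pituitary. With the replicate block (limma on mean levels) 44 windows were called in the ovary and 3 for the interaction, against 34 and 3 with limma without it; the 44 were 8 lower and 36 higher at T4. With the fish code as a block instead, limma called 713 windows between the pituitary and the ovary (43.0%, against 41.7% of all windows), against 961 without it (57.9%, against 59.0%). For ovary against liver it called 1327, against 1387 without it, and for pituitary against liver 1117, against 1202. The shares of all windows are not given here for these comparisons with the liver or for the replicate block. Those counts therefore carry no comparison with all windows. The fit with the fish block held terms for tissue and fish, but none for the 6 groups of tissue and time point. Fish with a single library added nothing to its tissue differences. Its counts therefore differ from those without the block in more than the block.

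Leaving out 1 library gave 1577 to 1762 windows. Ovary minus liver was -4.93 to -4.30 points, pituitary minus liver -4.40 to -3.76, pituitary minus ovary 0.157 to 0.881, and T4 minus T1 -0.885 to -0.284 in the pituitary, 0.513 to 1.34 in the ovary and -0.243 to -0.144 in the liver. Called windows were 2 to 9 in the pituitary, 2 to 7 in the ovary, 0 to 3 in the liver, 14 to 27 averaged and 0 to 7 for the interaction. The shares of all windows are not given for these ranges. The interaction call at CM003291.1 from 35600001 was lost without ovary T1 replicate 2 or ovary T4 replicate 2, and with at least 15 reads. The 9 tissue differences named for their small p kept their direction and call in all alternatives run on them. Leaving out a library of the third tissue could hardly change such a difference. The windows were taken up for their small p in these same libraries. That they kept their calls is therefore no independent support.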
